A study of Homo sapiens with 19 samples.

Results

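The set described here held 10 genes of 34825 in the deposited tables, namely the secreted precursor VGF, the receptor NGFR, the repressor REST, the granins CHGA, CHGB, SCG2, SCG3 and SCG5, the convertase PCSK1 and the neuronal tubulin-binding protein STMN2. VGF and NGFR were chosen by their rise with siRNA knockdown in these same libraries, and REST and the other 7 genes were taken for contrast. VGF was higher with each siRNA, whereas NGFR was higher with both INO80 siRNAs and not with siMCRS1, so the values went against the selection for NGFR in that arm. RNA-seq was performed on HepG2, a human liver cancer cell line, in 2 experiments that were normalized separately and are therefore compared only within themselves. In the INO80 experiment cells received, at 50 nM, either the control siRNA NTG or an siRNA against INO80, the ATPase of the INO80 chromatin remodelling complex (siINO80#1 or siINO80#2), and 3 libraries a group were made 72 h later. In the second experiment cells were given 1 uM EPZ-6438, an inhibitor of the histone methyltransferase EZH2, or DMSO from 3 days before transfection with NTG or with siMCRS1, which targets the INO80 complex subunit MCRS1. The siRNAs were again at 50 nM, with harvest at 72 h. This gave 2 libraries for DMSO NTG, 3 for DMSO siMCRS1, 3 for EPZ-6438 NTG and 2 for EPZ-6438 siMCRS1. All groups of both experiments share the transfection, NTG serves as the control of every siRNA, and the labels do not say whether replicates were separate cultures, so p-values measure only the spread between these libraries.

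Granins are acidic proteins that are packed with hormones and neuropeptides into the dense-core granules of endocrine and nerve cells, where prohormone convertases such as PCSK1 cut precursors into active peptides. VGF is such a precursor, and its gene is a classical responder to nerve growth factor in neuron-like cells. NGFR, the p75 neurotrophin receptor, binds the neurotrophins, among them nerve growth factor, and REST is a zinc-finger repressor that holds neuronal genes silent in cells that are not neurons by binding a DNA element called RE1. Hepatocytes secrete their plasma proteins constitutively and are not known for granules of this kind.

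The sequences upstream of these genes are shown first because VGF carries the letters of both a cAMP response element, which is bound by the activator CREB, and RE1, which is bound by REST. RefSeq promoter windows of 300 bases (GRCh38.p14), starting 250 bases upstream of a transcript start, were searched for 6 of the 10 members, which were VGF, REST, CHGA, SCG3, SCG5 and PCSK1. NGFR, CHGB and SCG2 had no window in the set used. STMN2 was left out of the search, so nothing is said here of its upstream sequence. Capitals mark the cAMP response element TGACGTCA or the stretch spanning the left arm TTCAGCAC and the right arm GGACAGCG of RE1, each searched on both strands, and all sequences are written 5′ to 3′ on the strand of the gene.
VGF, chr7:101165559-101165689, minus strand: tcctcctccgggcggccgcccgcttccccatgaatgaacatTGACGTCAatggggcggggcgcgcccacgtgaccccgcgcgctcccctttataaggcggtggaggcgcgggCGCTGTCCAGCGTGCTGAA
CHGA, chr14:92923030-92923149, plus strand: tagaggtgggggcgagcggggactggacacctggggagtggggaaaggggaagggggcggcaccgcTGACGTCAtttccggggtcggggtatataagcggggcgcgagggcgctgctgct
PCSK1, chr5:96433249-96433368, minus strand: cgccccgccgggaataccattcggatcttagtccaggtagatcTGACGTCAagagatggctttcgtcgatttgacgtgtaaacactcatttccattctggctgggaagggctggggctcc
SCG3, chr15:51681511-51681535, plus strand: TTCAGCACCCACAGGGCGGACAGCG
In VGF the cAMP response element lay at positions -79 to -72 from the transcript start and the arms of RE1, 3 bases apart on the strand opposite to the gene, at -8 to 11. The same 8-letter cAMP response element lay at -54 to -47 in CHGA and at -77 to -70 in PCSK1, 2 genes with almost no reads in any library (below 5 normalized counts). In SCG3 the arms of RE1 were 9 bases apart, at 9 to 33. Among 35116 RefSeq windows of this length, 1.85% held TGACGTCA, 0.963% held TTCAGCAC, 1.63% held GGACAGCG, and 7 windows (0.0199%) held both arms 1 to 12 bases apart. In the window of REST a single GGACAGCG lay at -170 to -163 and the AP-1 word TGAGTCA, present in 4.95% of windows, at -211 to -205. These letters describe the windows and are not evidence of binding.

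The deposited values were normalized counts, and in each library all of them were whole multiples of 1 step. This gave the whole count behind each value, called reads here. The submitters' notes name kallisto, which estimates counts, so these can be rounded estimates and not observed reads. The INO80 experiment held 17093574 to 25369547 reads a library and the drug experiment 26038505 to 47397233, so that 3 reads, taken as the floor of detection, corresponded to 2.30 to 3.58 and 2.13 to 4.30 normalized counts. The targeted INO80 mRNA fell to 0.482 of NTG with siINO80#1 and to 0.365 with siINO80#2, and MCRS1 fell to 0.0793 of NTG with siMCRS1 in either treatment. Genes whose normalized counts averaged at least 10 over all libraries of an experiment, knockdown libraries included, were tested with limma on log2(value + 1). A gene near 0 with NTG was therefore tested only if other groups raised its mean. The threshold was adjusted p under 0.05. Statements that groups of 2 or 3 libraries did not overlap describe the values only. The share of all genes that separate in this way was not counted. The filter on the mean was passed by 6 members in the INO80 experiment (VGF, NGFR, REST, CHGB, SCG3 and SCG5) and by 5 in the drug experiment (the same without SCG3).

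VGF (gene 7425, chr7:101162509-101169952, minus strand) was the member with the largest differences from NTG. NTG libraries of the INO80 experiment held 46.8, 73.9 and 30.7 normalized counts (42, 72 and 32 reads). With siINO80#1 VGF was at 263.5, 477.9 and 390.9, and with siINO80#2 at 765.1, 808.0 and 787.9. The 3 groups did not overlap at any library, in the order NTG, siINO80#1, siINO80#2. Group means were 50.5 ± 21.8, 377 ± 108 and 787 ± 21.5 (SD, n = 3), and on the log2(value + 1) scale, which understates the change of low genes, the difference from NTG was 2.92 (SE 0.28), or 7.59-fold, with siINO80#1 and 4.02 (SE 0.28), or 16.3-fold, with siINO80#2. These differences chose the gene and are given without a test, as are those of NGFR, beside a background of 20.7% of 14034 tested genes called higher with siINO80#1 and 26.6% with siINO80#2. These are bulk libraries, in which more RNA per cell and more cells with the RNA cannot be told apart.

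In the DMSO arm of the drug experiment VGF was at 45.0 and 76.3 normalized counts with NTG and at 710.0, 1062.9 and 1160.2 with siMCRS1. In EPZ-6438 the values were 33.4, 66.1 and 53.6 with NTG and 337.6 and 607.1 with siMCRS1. In each treatment the lowest siMCRS1 library stood above the highest NTG library. The differences were 4.01 (SE 0.36), or 16.1-fold, in DMSO and 3.18 (SE 0.36), or 9.05-fold, in EPZ-6438, and 23.1% and 26.8% of 14312 tested genes were called higher in these comparisons. The levels were in the order EPZ-6438 NTG (51.0 ± 16.5, n = 3), DMSO NTG (60.7 ± 22.2, n = 2), EPZ-6438 siMCRS1 (472 ± 191, n = 2) and DMSO siMCRS1 (978 ± 237, n = 3). The NTG groups overlapped, whereas every EPZ-6438 siMCRS1 library lay below every DMSO siMCRS1 library.

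The comparison of the INO80 siRNAs with each other did not itself choose VGF, but it used the same knockdown libraries. Its p-value is therefore not independent of the choice, and the same holds for the EPZ-6438 comparisons of VGF and for those of NGFR. Between the INO80 siRNAs VGF was higher with siINO80#2, by 1.10 (SE 0.28, 95% interval 0.48 to 1.72, limma adjusted p = 0.0190). Of 14034 genes 9.48% were called higher and 12.6% lower in this comparison, and INO80 itself was lower with siINO80#2 than with siINO80#1 by a log2 difference of -0.40 (SE 0.08, limma adjusted p = 0.0059). Without siINO80#1 replicate A, the lowest of its group, the VGF difference was 0.86 and no longer passed (limma adjusted p = 0.0750). EPZ-6438 against DMSO gave -0.25 in NTG (95% interval -1.04 to 0.53, limma adjusted p = 0.769) and -1.08 in siMCRS1 (95% interval -1.86 to -0.29, limma adjusted p = 0.368). The difference between these effects was -0.83 (95% interval -1.94 to 0.28, limma adjusted p = 1.00), so a smaller siMCRS1 effect in EPZ-6438 was not resolved.

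NGFR (gene 4804, chr17:49495293-49515008, plus strand) held 48.0, 70.8 and 32.6 normalized counts in the NTG libraries of the INO80 experiment, close to VGF in the same libraries. Values were 304.0, 413.4 and 316.6 with siINO80#1 and 152.6, 152.4 and 142.7 with siINO80#2. The groups did not overlap, but the order of the INO80 siRNAs was the opposite of that for VGF. The differences from NTG were 2.80 (SE 0.24), or 6.98-fold, and 1.61 (SE 0.24), or 3.06-fold, with group means of 50.5 ± 19.2, 345 ± 59.9 and 149 ± 5.68 (SD, n = 3). Between the siRNAs NGFR was lower with siINO80#2 by a log2 difference of -1.19 (SE 0.24, 95% interval -1.71 to -0.67, limma adjusted p = 0.0059), and leaving out any library kept this difference between -1.27 and -1.05.

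The drug experiment gave another picture for NGFR. With NTG in DMSO it was at 65.1 and 142.2 normalized counts, and with siMCRS1 in DMSO at 22.3, 19.8 and 75.9. EPZ-6438 NTG libraries held 10.8, 60.4 and 21.0, and EPZ-6438 siMCRS1 libraries 8.0 and 20.4. The groups overlapped in each treatment, no siMCRS1 library exceeded the highest NTG library of its treatment, and NGFR was -1.54 (SE 0.75) with siMCRS1 in DMSO and -0.86 (SE 0.75) in EPZ-6438 on the log2 scale, opposite in sign to the INO80 experiment. These sizes rested on single libraries, since in DMSO the value ranged from -2.14 (without DMSO siMCRS1 replicate 3) to -0.985 (without DMSO NTG replicate 3), and in EPZ-6438 from -1.48 (without EPZ-6438 siMCRS1 replicate B) to -0.21 (without EPZ-6438 NTG replicate 2) and -0.23 (without EPZ-6438 siMCRS1 replicate A). Leaving out EPZ-6438 NTG replicate 1 also moved the value in EPZ-6438 away from 0, within that range. Libraries of a group spread widely, from 10.8 to 60.4 in EPZ-6438 NTG, and the residual SD of NGFR was 1.04 log2 units against 0.35 in the INO80 experiment. EPZ-6438 against DMSO was -1.95 in NTG (95% interval -3.60 to -0.30, limma adjusted p = 0.222) and -1.27 in siMCRS1 (95% interval -2.92 to 0.38, limma adjusted p = 0.691). Neither passed. The NTG groups did not overlap, but how many of all genes separate so was not counted. The level order was DMSO NTG (104 ± 54.5), DMSO siMCRS1 (39.3 ± 31.7), EPZ-6438 NTG (30.7 ± 26.2) and EPZ-6438 siMCRS1 (14.2 ± 8.78), and each neighbouring pair in this order overlapped. NGFR overlaps the antisense gene NGFR-AS1. The library kit keeps the strand, but whether counting used it is not given in the sources used here.

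**Figure D1:**
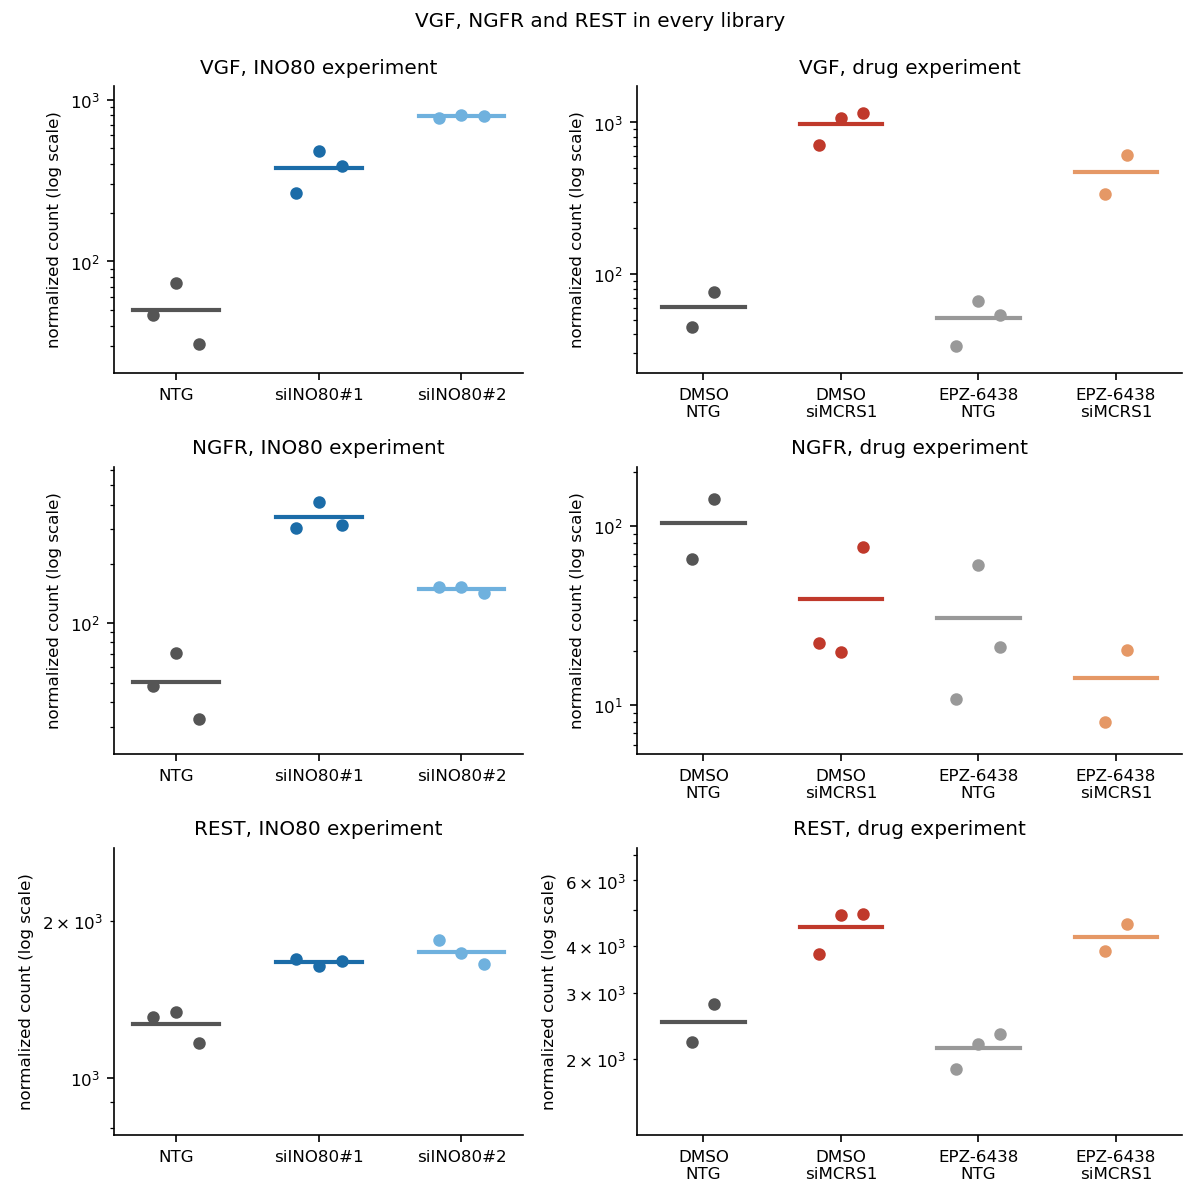
Normalized counts on log axes for VGF, NGFR and REST in every library (points) with group means (bars), in the INO80 experiment (left) and the drug experiment (right). VGF and REST were above NTG with each siRNA, whereas NGFR was above NTG with siINO80#1 (304.0 to 413.4) and siINO80#2 (142.7 to 152.6) and ranged from 8.0 to 75.9 with siMCRS1.

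REST (gene 5978, chr4:56907900-56935844, plus strand), the repressor of neuronal genes, rose with every siRNA. NTG libraries of the INO80 experiment held 1310.5, 1335.5 and 1165.5 normalized counts, siINO80#1 libraries 1689.5, 1640.9 and 1672.1, and siINO80#2 libraries 1837.5, 1732.3 and 1651.4. Every knockdown library lay above every NTG library, and the increase was 0.39 (SE 0.07, limma adjusted p = 0.0015) with siINO80#1 and 0.45 (SE 0.07, limma adjusted p = 0.0004) with siINO80#2, where 20.7% and 26.6% of all tested genes were called higher. The INO80 siRNAs overlapped each other for REST and differed by 0.06 (95% interval -0.10 to 0.22, limma adjusted p = 0.601).

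With siMCRS1 the REST mRNA was at 3819.3, 4842.9 and 4882.9 normalized counts in DMSO, above NTG at 2226.0 and 2813.4, and at 3888.8 and 4598.6 in EPZ-6438, above NTG at 1883.2, 2200.9 and 2332.8. The increases were 0.84 (SE 0.15, limma adjusted p = 0.0011) and 0.99 (SE 0.15, limma adjusted p = 0.0003), where 23.1% and 26.8% of all tested genes were called higher. EPZ-6438 against DMSO gave -0.23 in NTG (95% interval -0.57 to 0.10) and -0.09 in siMCRS1 (95% interval -0.42 to 0.25), neither past the limma threshold. VGF and REST were thus higher in the same libraries. REST overlaps NOA1 on the opposite strand, whose libraries held 423 to 562 normalized counts in the first experiment and 888 to 1353 in the second, and their reads could be mixed if counting ignored strand.

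Of the granins that could be tested, CHGB (gene 1114, chr20:5911510-5925353) and SCG3 (gene 29106, chr15:51681503-51721026) did not pass in any comparison, while SCG5 (gene 6447, chr15:32641710-32697092), also called 7B2, a chaperone of the convertase PCSK2, fell with both INO80 siRNAs. CHGB, a core granin, was at 30.1, 52.4 and 42.2 normalized counts with NTG, 38.2, 43.6 and 37.6 with siINO80#1 and 52.7, 42.1 and 51.0 with siINO80#2. These ranges overlapped, and the intervals of the log2 differences from NTG were -0.52 to 0.46 and -0.24 to 0.74. In the drug experiment CHGB was at 46.9 and 49.6 in DMSO NTG, 36.7, 73.8 and 68.8 in DMSO siMCRS1, 75.4, 93.8 and 97.8 in EPZ-6438 NTG and 77.6 and 66.6 in EPZ-6438 siMCRS1. Every EPZ-6438 NTG library stood above every DMSO NTG library, a difference of 0.86 (SE 0.30) that did not pass (limma adjusted p = 0.188). The siMCRS1 groups overlapped NTG in each treatment.

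SCG5 had 27.9, 14.4 and 26.9 normalized counts with NTG, 4.8, 2.0 and 9.6 with siINO80#1 and 6.7, 9.2 and 6.6 with siINO80#2. No knockdown library reached the lowest NTG library, and the log2 differences were -2.03 (SE 0.48, limma adjusted p = 0.0061) and -1.46 (SE 0.48, limma adjusted p = 0.0238). These are low counts, from 2 to 12 reads in the knockdown libraries, and the call with siINO80#2 was lost when NTG replicate A or C or siINO80#2 replicate A or C was left out (limma adjusted p from 0.0552 to 0.0826). With siMCRS1 SCG5 was at 3.3, 5.5 and 12.9 in DMSO, below NTG at 19.1 and 17.2, and at 5.6 and 11.5 in EPZ-6438, below NTG at 18.3, 22.7 and 32.6. The groups did not overlap, with differences of -1.39 (SE 0.53, limma adjusted p = 0.0512) and -1.45 (SE 0.53, limma adjusted p = 0.0386), the first just short of the threshold. SCG5 in DMSO passed it with equal totals (-1.60, limma adjusted p = 0.0290), with eBayes without a trend (limma adjusted p = 0.0455) and without DMSO siMCRS1 replicate 3 (-1.85, limma adjusted p = 0.0128). The call in EPZ-6438 was lost with quantile normalization (-1.22, limma adjusted p = 0.0629), without EPZ-6438 NTG replicate 2 or 3 and without EPZ-6438 siMCRS1 replicate A (limma adjusted p from 0.0697 to 0.246). SCG5 shares its strand and part of its span with the read-through gene ARHGAP11A-SCG5, so its reads could be split between them.

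SCG3, a granin that helps to sort cargo into granules, was at 12.3, 7.2 and 10.6 normalized counts with NTG, 9.5, 5.0 and 11.4 with siINO80#1 and 16.8, 10.0 and 13.2 with siINO80#2. The groups overlapped, and the differences from NTG were -0.23 (95% interval -1.08 to 0.62) and 0.38 (95% interval -0.47 to 1.23). In the drug experiment, where its mean was under the minimum for testing, SCG3 was at 11.5 and 10.5 in DMSO NTG, 3.3, 3.3 and 5.7 in DMSO siMCRS1, 6.5, 13.5 and 7.4 in EPZ-6438 NTG and 6.4 and 5.3 in EPZ-6438 siMCRS1. The siMCRS1 libraries lay below NTG in both treatments.

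The remaining 4 members were at or near the floor in every library. CHGA (gene 1113), the granin most used as a clinical marker of neuroendocrine cells, had at most 2 reads in a library. SCG2 (gene 7857), the precursor of the peptide secretoneurin, had 0 to 1 read with NTG in the INO80 experiment, 1 to 3 with siINO80#1 and 3 to 4 with siINO80#2, and in the drug experiment its highest values were 5.6 and 3.6 normalized counts (7 and 4 reads), in the EPZ-6438 siMCRS1 libraries. PCSK1 (gene 5122) had at most 4 reads in a library, and STMN2 (gene 11075) at most 2 in the INO80 experiment and 0 in all 10 libraries of the drug experiment. These genes were too low to be tested, and no fold is given. CHGB and SCG5, the granins with control levels nearest to that of VGF, had log2 differences from NTG of -2.03 to 0.25 with the INO80 siRNAs. VGF had 2.92 and 4.02, but it was chosen for this rise and the granins for contrast. The gap therefore follows at least partly from the choice and is not evidence that VGF stands apart from them.

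**Figure D2:**
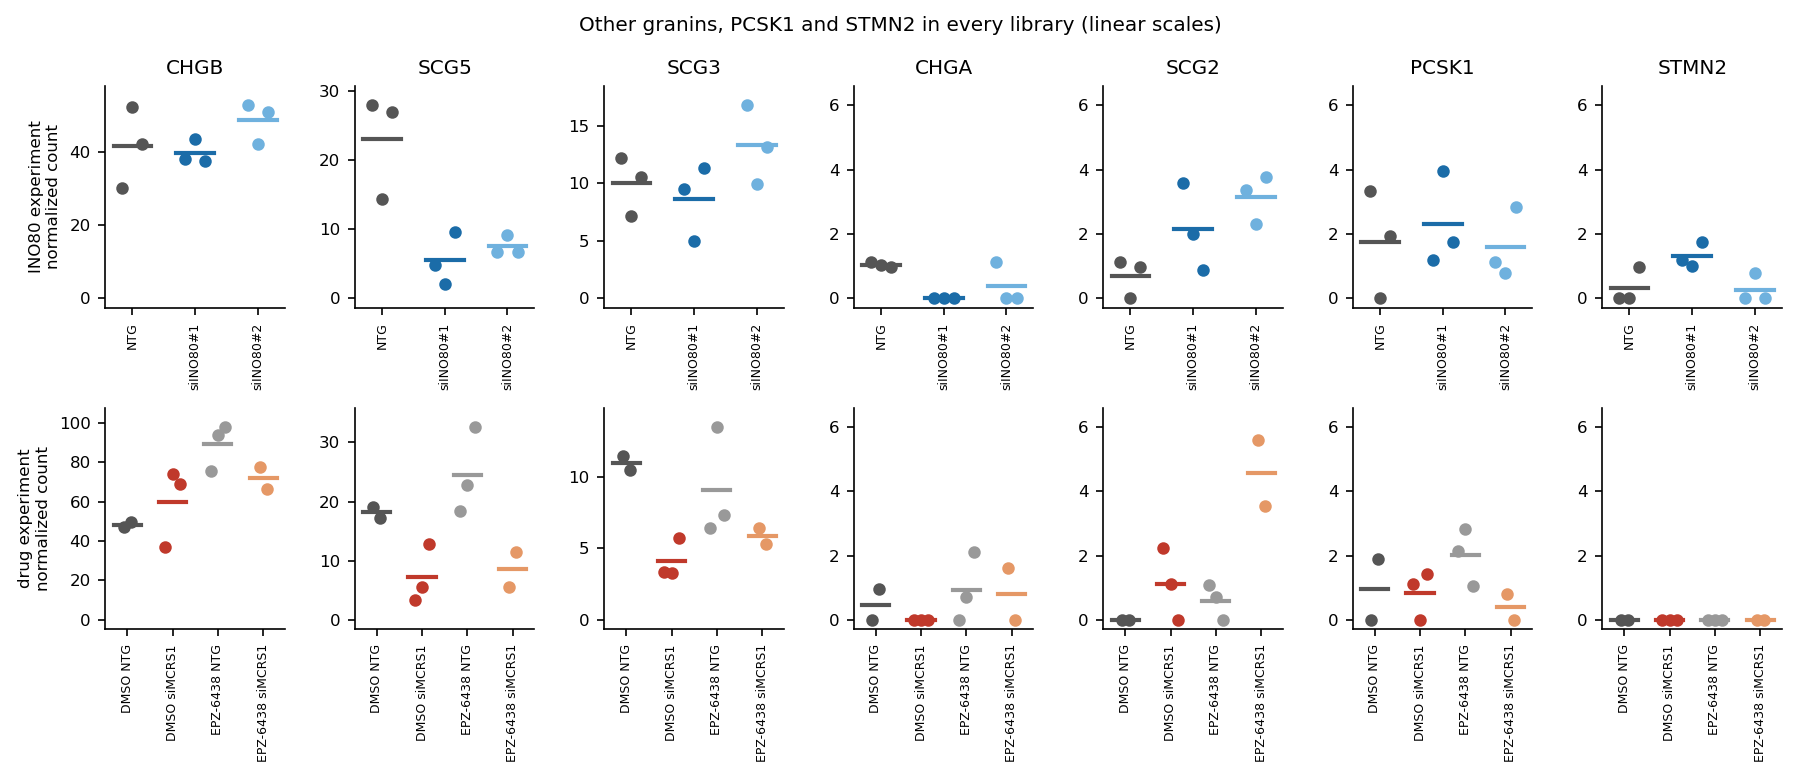
Normalized counts on linear axes for the 7 other members in every library (points) with group means (bars), in the INO80 experiment (top) and the drug experiment (bottom). SCG5 was below NTG with each siRNA, CHGB stayed between 30.1 and 97.8, and CHGA, SCG2, PCSK1 and STMN2 did not exceed 5.6.

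Among the 4 tested members other than VGF and NGFR, REST was called higher and SCG5 lower with each INO80 siRNA, in comparisons in which 20.7% of all tested genes were called higher and 20.8% lower (siINO80#1), and 26.6% higher and 28.4% lower (siINO80#2). Of the 3 such members in the drug experiment, REST was called higher in both treatments and SCG5 lower in EPZ-6438, where 23.1% of tested genes were called higher and 24.6% lower in DMSO, and 26.8% higher and 26.9% lower in EPZ-6438. None of the 5 tested members passed in EPZ-6438 against DMSO, where 0.321% of genes were called higher and 0.0629% lower in NTG, and 0.0838% higher and 0.00699% lower in siMCRS1. The interaction of siMCRS1 with EPZ-6438 gave 0 calls of 14312 genes by limma and 0 by edgeR, with 336 at an unadjusted p under 0.05 by limma.

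**Figure D3:**
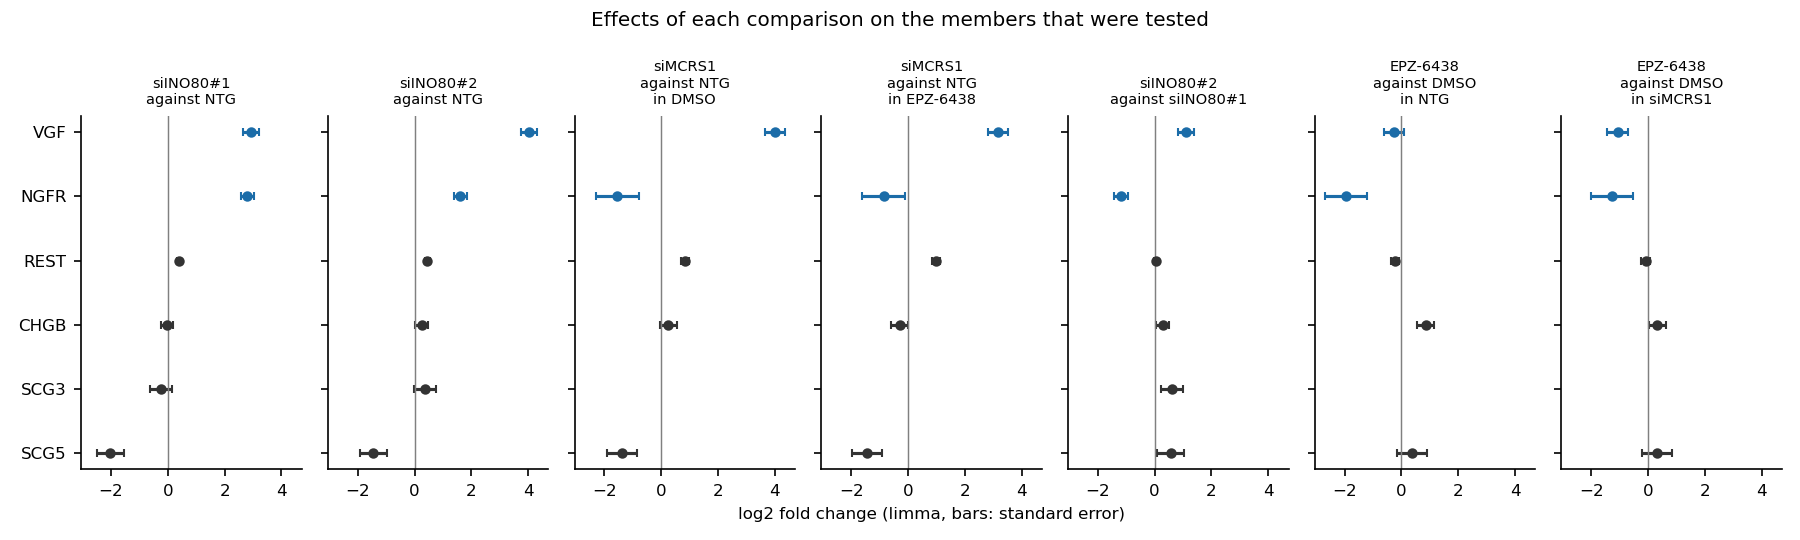
Log2 fold changes of the tested members (points) with standard errors (bars) in 7 comparisons, where VGF and NGFR (blue) were chosen on the 4 comparisons at the left. SCG3 was not tested in the drug experiment. VGF ranged from 2.92 to 4.02 against NTG, and NGFR from -1.54 to 2.80.

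Per kilobase of the longest annotated transcript, in NTG libraries of the INO80 experiment, the level of REST was 172 ± 12.5 normalized counts per kb (SD, n = 3), far above VGF at 19.8 ± 8.56, SCG5 at 18.7, CHGB at 16.9 ± 4.52 and NGFR at 14.8 ± 5.64, whose spreads overlapped. SCG3 was at 3.17 ± 0.82 and CHGA at 0.52. With siINO80#2 the level of VGF was 308 ± 8.41 per kb, above REST at 236 ± 12.7, and with siINO80#1 VGF was at 148 ± 42.3 and NGFR at 101 ± 17.6. In DMSO siMCRS1 VGF reached 383 ± 92.9 per kb, below REST at 613 ± 81.8.

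The genes around the members were taken from 11 lists, drawn up with earlier results of these data known, that cover granule proteins, prohormone processing, neurotrophin receptors and their signalling, REST and its corepressors, REST targets, transcription factors, early response genes and cell markers. Without VGF and NGFR they held 202 genes, of which 137 were tested in each experiment. Listed genes near 0 with NTG entered only where another group lifted their mean past the filter, which favours rises over falls among such genes. With siINO80#1, 49 of them (35.8%) rose and 8 (5.84%) fell, and with siINO80#2, 62 (45.3%) rose and 25 (18.2%) fell. With siMCRS1, 53 (38.7%) rose and 17 (12.4%) fell in DMSO, and 59 (43.1%) rose and 26 (19.0%) fell in EPZ-6438. These shares stood beside 20.7% to 26.8% of all tested genes called higher and 20.8% to 28.4% called lower. Between the INO80 siRNAs 15 of the 137 were higher and 23 lower with siINO80#2. The split of all calls depended on the scaling, since with each library rescaled to the same total the median of all genes moved to -0.08 and -0.11 with the INO80 siRNAs and to -0.23 in both siMCRS1 comparisons, and the share of calls that were higher went from 49.9% to 39.8%, 48.3% to 38.7%, 48.4% to 27.0% and 49.9% to 30.1%. Under that scaling 43, 52, 40 and 44 of the listed genes rose and 9, 26, 28 and 39 fell, and the increase of REST was 0.31, 0.35, 0.61 and 0.75.

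Neuronal genes that REST is known to repress in other cells formed 1 list. For this and the following lists, the shares of all tested genes called higher were 20.7% and 26.6% with the INO80 siRNAs. With siMCRS1 these shares were 23.1% in DMSO and 26.8% in EPZ-6438. The shares called lower were 20.8%, 28.4%, 24.6% and 26.9% in the same order. More of the tested REST targets were called higher than lower in each knockdown comparison. Of 24 tested with the INO80 siRNAs, 11 rose and 0 fell with siINO80#1, and 12 rose and 2 fell with siINO80#2, with medians of 0.29 and 0.49 against 0.00 for all genes. Of 20 tested with siMCRS1, 6 rose and 2 fell in DMSO (median 0.37) and 6 rose and 4 fell in EPZ-6438, where the median was -0.29 although more genes rose than fell. The genes that fell were SYP and ATP2B2 with siINO80#2, SYP and GDAP1 with siMCRS1 in DMSO, and these 3 with MAPK8IP2 in EPZ-6438. TUBB3, a neuronal beta-tubulin, rose by 1.98 (SE 0.09) with siINO80#1, 2.36 (SE 0.09) with siINO80#2, and with siMCRS1 2.15 (SE 0.15) in DMSO and 2.04 (SE 0.15) in EPZ-6438. In the same order of comparisons, the kinesin motor KIF5C rose by 2.54, 2.82, 2.03 and 2.51, the stathmin STMN3 by 1.89, 1.16, 1.62 and 1.96, the adhesion molecule L1CAM by 1.40, 2.47, 0.68 and 0.94, and CDK5R1, the activator of the kinase CDK5, by 0.67, 1.03, 1.13 and 1.31 (limma adjusted p at most 0.041). Of the list, 44 genes without VGF, the others were below the minimum for testing, STMN2 and CHGA among them. The counts of rises thus cover only genes that passed a filter to which the knockdown libraries contributed.

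Genes of the list of REST, its corepressors and regulators, which also holds L1CAM, were likewise called higher more often than lower. Of 25 tested genes 11 rose and 1 fell with siINO80#1, 13 rose and 6 fell with siINO80#2, 11 rose and 3 fell with siMCRS1 in DMSO, and 13 rose and 4 fell in EPZ-6438, with medians from 0.11 to 0.41. In the order used above, the corepressor scaffold SIN3A rose by 0.48, 0.52, 0.63 and 0.61, its paralogue SIN3B by 0.59, 0.65, 0.57 and 0.63, CDYL, a chromodomain corepressor, by 0.41, 0.60, 0.77 and 0.84, and the phosphatase CTDSPL by 0.73, 0.82, 0.60 and 0.72. RCOR3, a paralogue of the corepressor CoREST, fell, with -0.52, -0.94, -0.50 and -0.44. With siINO80#2 the other genes that fell were CTBP2 (-0.54), CTDSP1 (-0.50), CTDSP2 (-0.32), USP7 (-0.45) and the methyltransferase gene EHMT2 (-0.28). With siMCRS1 CTDSP1 (-0.71 in DMSO and -0.95 in EPZ-6438) and EHMT2 (-1.25 and -1.34) also fell in either treatment, as did HMG20B in EPZ-6438, whereas CTDSP2 rose (0.42 and 0.41).

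Genes for dense-core granules and exocytosis rose with the INO80 siRNAs in 10 of 18 tested (0 fell) and 12 of 18 (2 fell), with medians of 0.75 and 0.92, and with siMCRS1 in 8 of 19 (1 fell) and 6 of 19 (3 fell), with medians of 0.33 and 0.34. Those that fell were CADPS2 and CPLX2 with siINO80#2, RAB3D with siMCRS1 in either treatment, and VAMP2 and RIMS2 in EPZ-6438. SYT11, a synaptotagmin of vesicle traffic, was at 32.9 ± 2.39 normalized counts with NTG, 100 ± 17.4 with siINO80#1 and 274 ± 26.2 with siINO80#2 (SD, n = 3), log2 increases of 1.57 and 3.02, and rose by 2.62 and 2.52 with siMCRS1. The exocytic GTPase RAB27A rose by 0.84, 1.00, 0.93 and 0.95, RAB3B by 1.14, 1.46, 0.64 and 0.95, and SYTL4, a granule effector of RAB27A, by 0.76, 1.77, 0.72 and 1.00. The plasma membrane SNARE STX1A rose by 0.91, 1.42 and 0.76 in the first 3 comparisons and was 0.34 (limma adjusted p = 0.202) with siMCRS1 in EPZ-6438.

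The granin and neuropeptide list, by contrast, gave few calls. Of 14 genes without VGF, 5 and 4 were tested in the experiments, and the calls were SCG5 lower with each INO80 siRNA and with siMCRS1 in EPZ-6438, and ADM, the vasodilator peptide adrenomedullin, higher with siMCRS1 by 1.42 in DMSO and 1.31 in EPZ-6438 (limma adjusted p = 0.00022 and 0.00025). ADM was named after its values were seen, as were the other genes given beside counts of 5 or fewer. In prohormone processing 3 of 10 rose and 1 fell with siINO80#1, 2 rose and 2 fell with siINO80#2, and with siMCRS1 3 rose and 2 fell in DMSO and 3 rose and 4 fell in EPZ-6438. Those that rose were CPE, FURIN and PCSK7 with siINO80#1, PAM and PCSK7 with siINO80#2, CPE, PAM and PCSK5 with siMCRS1 in DMSO and CPD, PAM and PCSK5 in EPZ-6438. Those that fell were SCG5 with both INO80 siRNAs, PCSK6 with siINO80#2, FURIN and PCSK7 with siMCRS1 in either treatment, and PCSK4 and SCG5 in EPZ-6438. PAM amidates peptides, by which many hormones become active, and rose by 0.28, 0.70 and 0.61 in the last 3 of the 4 comparisons. The convertase gene PCSK7 rose with the INO80 siRNAs, by 0.44 and 0.36, and fell with siMCRS1, with -0.41 and -0.59. FURIN, the widely expressed convertase, was 0.37, -0.25, -0.60 and -1.07 in the 4 comparisons, and the second of these did not pass (limma adjusted p = 0.058).

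**Figure D4:**
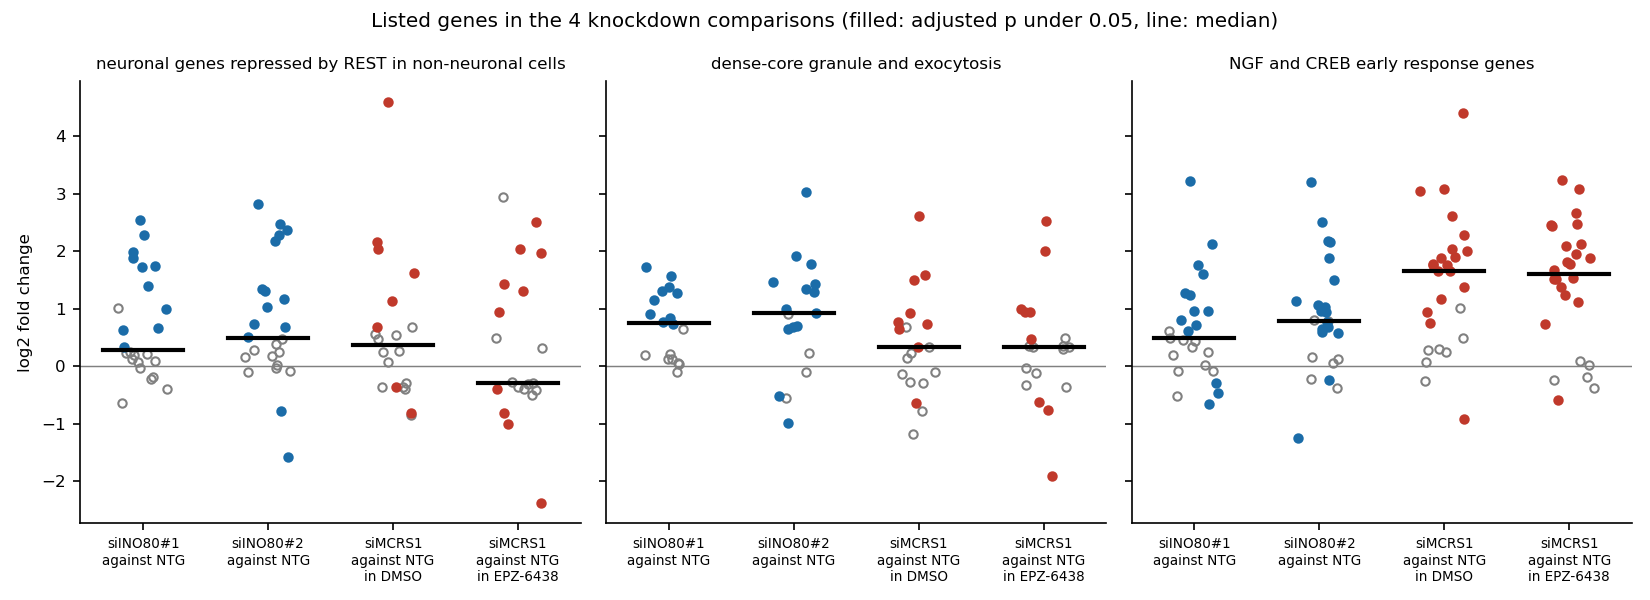
Log2 fold changes of the tested genes (points) of 3 lists in the 4 knockdown comparisons, without VGF and NGFR, with medians (black lines) and filled points where limma adjusted p was under 0.05. Early response genes had medians of 0.49 and 0.79 with the INO80 siRNAs and of 1.65 and 1.61 with siMCRS1, and the REST target list had medians from -0.29 to 0.49.

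Neurotrophin ligands and receptors other than NGFR were mostly below the minimum for testing. Of 11 such genes 3 were tested in each experiment, and none passed. SORT1, which encodes sortilin, the coreceptor of NGFR for proneurotrophins, was 0.05 and -0.14 with the INO80 siRNAs and -0.16 and 0.03 with siMCRS1, and the gene for nerve growth factor itself was not tested. Among partners and signalling proteins of NGFR, 2 of 15 rose and 1 fell with siINO80#1, 7 rose and 4 fell with siINO80#2, and with siMCRS1 5 rose and 4 fell in DMSO and 8 rose and 5 fell in EPZ-6438. Besides the genes given next, NCSTN fell in the last 3 comparisons, MAGED1 fell with siINO80#2, and BEX3 and IRAK1 fell with siMCRS1 in either treatment. ZNF274 (0.26, 0.73 and 0.82) and ADAM17 (0.24, 0.52 and 0.61) rose with siINO80#2 and with siMCRS1 in either treatment. The direction differed for ADAM10, which fell with siINO80#2 (-0.26) and rose with siMCRS1 in EPZ-6438 (0.42), and for IKBKB, which rose with siINO80#2 (0.39) and fell with siMCRS1 in EPZ-6438 (-0.31). RIPK2, a kinase that binds the death domain of NGFR, rose by 0.72, 0.84, 1.00 and 1.15, ARHGDIA rose by 0.41, 0.64, 0.59 and 0.49, and PSENEN, a subunit of the gamma-secretase that cleaves NGFR, was lower with -0.61, -0.55, -0.80 and -1.11.

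Early response genes of nerve growth factor and CREB signalling had the largest medians of the 11 lists with siMCRS1. The lists were drawn up with earlier results of these data known, so this rank is only a description. Of 25 tested with the INO80 siRNAs 11 rose and 3 fell with siINO80#1 and 16 rose and 2 fell with siINO80#2, with medians of 0.49 and 0.79. Of 26 tested with siMCRS1 18 rose and 1 fell in DMSO and 20 rose and 1 fell in EPZ-6438, with medians of 1.65 and 1.61. These include ARC, which was tested only in the drug experiment and rose by 4.40 in DMSO and 2.45 in EPZ-6438. The filter on the mean included the siMCRS1 libraries, which favours such genes. PPARGC1A fell in all 4 comparisons, CREB3 with both INO80 siRNAs and MMP3 with siINO80#1. The zinc-finger gene EGR1 rose by 1.61, 2.17, 3.08 and 3.24, EGR3 by 3.22, 3.19, 1.90 and 1.54, the urokinase receptor gene PLAUR by 1.75, 2.16, 1.65 and 1.51, and FOSL1, an AP-1 subunit, by 1.28, 1.50, 1.17 and 1.37. DUSP4 and DUSP5, phosphatases of ERK kinases, rose by 1.23, 1.88, 1.65 and 1.80 and by 2.12, 2.50, 2.03 and 1.96.

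DUSP5 was also the gene whose pattern across libraries was most like that of VGF. Likeness was the smaller of the Pearson correlations over the 9 libraries of the INO80 experiment and the 10 of the drug experiment, among 11419 genes averaging at least 50 normalized counts in both, and it is a description, since libraries of a group share their treatment and normalization. DUSP5 had r of 0.990 and 0.987, with means of 597, 2568 and 3311 normalized counts in NTG, siINO80#1 and siINO80#2, and CSNK1E, AFAP1, PTBP3 and PCGF3 followed with smaller correlations of 0.986, 0.983, 0.982 and 0.982. For NGFR the most similar was WASL, with r of 0.892 and 0.879, followed by CCND2, AXL, PLCD3 and SH2D5 with smaller correlations of 0.861, 0.860, 0.823 and 0.823. AXL, a receptor kinase, was higher with siINO80#1 (0.98) than with siINO80#2 (0.36), the order shown by NGFR. This order follows at least partly from naming AXL by its likeness to NGFR. WASL, CCND2, PLCD3 and SH2D5 differed less, by -0.09, -0.05, -0.17 and -0.17 for siINO80#2 against siINO80#1.

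**Figure D5:**
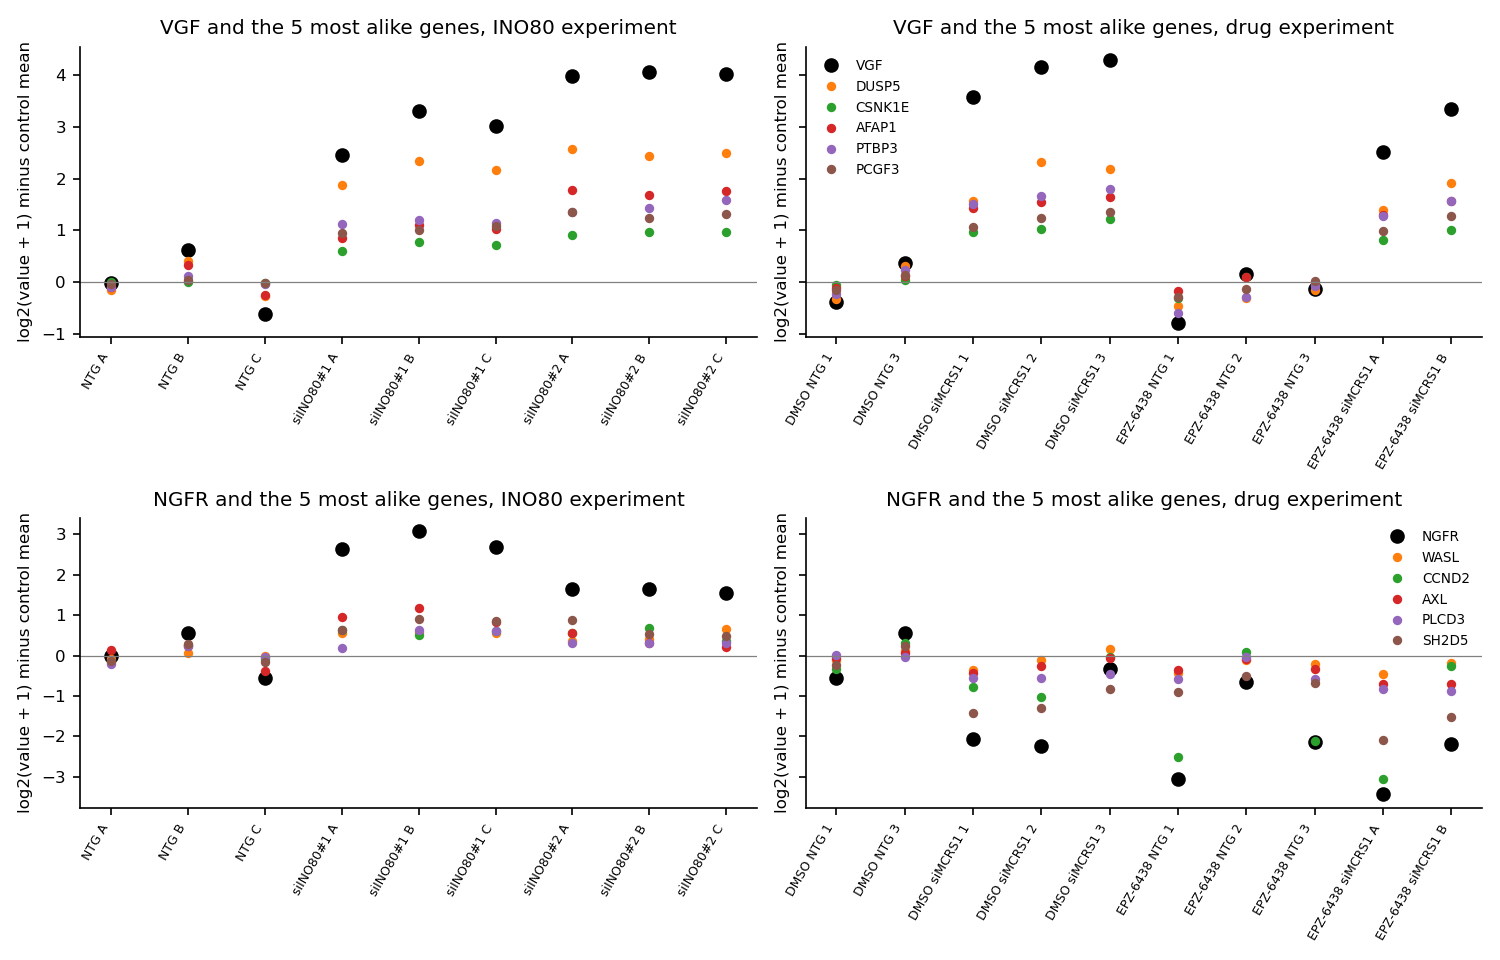
Log2(value + 1) minus the mean of the control libraries (NTG, or DMSO NTG in the drug experiment) in every library, for VGF (top) and NGFR (bottom) in black and the 5 genes most like each in colour. The genes named with VGF were higher with each siRNA, and those named with NGFR were higher with the INO80 siRNAs and mostly below the DMSO NTG mean in the other drug libraries.

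EPZ-6438 against DMSO in NTG called 2 of the 137 listed genes, both higher, and 0 or 1 when any of the 5 NTG libraries was left out. SYT7, a calcium sensor of granule exocytosis, rose by 2.52 (SE 0.38, limma adjusted p = 0.0298), from 13.9 ± 0.64 normalized counts (n = 2) to 89.6 ± 37.9 (n = 3). BEX3, a protein that binds the death domain of NGFR, rose by 0.87 (SE 0.14, limma adjusted p = 0.0298), from 777 ± 109 to 1417 ± 34.8. In siMCRS1 EPZ-6438 gave 0 calls of 137 by limma and 1 by edgeR.

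Markers of cell identity did not shift together towards a neuroendocrine profile. Of 9 neuroendocrine marker genes 5 were tested, and 1 rose and 1 fell with siINO80#1, 1 rose and 3 fell with siINO80#2, and 0 rose and 3 fell with siMCRS1 in each treatment. ENO2, a neuronal enolase, rose with the INO80 siRNAs, by 0.53 and 0.41, and fell with siMCRS1, with -0.77 and -0.76. DDC, the decarboxylase of dopamine and serotonin synthesis, fell from 953 ± 17.0 normalized counts with NTG to 230 ± 31.7 with siINO80#1 and 129 ± 16.9 with siINO80#2, and by -1.13 and -1.16 with siMCRS1. SYP, which encodes synaptophysin, was -0.39 (limma adjusted p = 0.15), -0.79, -0.82 and -0.81, of which the last 3 passed, and NEUROD1 fell with siINO80#2 by a log2 difference of -1.34. CHGA, INSM1 and UCHL1 were among those below the minimum for testing. Of neuroendocrine and neuronal transcription factors 2 of 7 rose with each INO80 siRNA (0 and 1 fell) and 2 of 8 with siMCRS1 in each treatment (1 and 2 fell). SOX4 rose in each, by 1.20, 2.11, 1.75 and 1.86, beside PROX1 in all but siMCRS1 in DMSO and FOXA2 in that comparison. NEUROD1 fell with siINO80#2, POU4F1 with siMCRS1 in either treatment and NEUROD2 with siMCRS1 in EPZ-6438.

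Hepatocyte markers were present in all libraries, with albumin (ALB) between 113494 and 265134 normalized counts and alpha-fetoprotein (AFP) between 115414 and 237713 as group means. All 9 markers were tested. With siINO80#1 0 rose and 1 fell, with siINO80#2 0 rose and 5 fell (median -0.57), and with siMCRS1 0 rose and 1 fell in DMSO and 1 rose and 1 fell in EPZ-6438. The liver regulator HNF4A fell in each comparison, with -0.45, -1.02, -0.55 and -0.55. ALB, APOA1, TTR and TF were the others that fell with siINO80#2, and ALB rose with siMCRS1 in EPZ-6438. Their part in the levels of VGF and NGFR was not tested.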

How the data were processed

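The authors deposited a table of normalized counts for each experiment (a signal, gene counts divided by a size factor per library), and the submitters' processing notes name kallisto, DESeq2 and GRCh38 without their roles. Columns of the drug experiment carry a group and mostly no label letter. All values (100%, tolerance 0.01 read) were whole multiples of the library's step, which recovered whole counts. These are called reads here and can be rounded estimates. Replicate pairs differed by more than sampling noise (in 17 pairs, chi-square per degree of freedom was 9.45 to 121). The highest values, 84.3 and 121, were both pairs with siINO80#2 replicate C, and siINO80#2 replicates A and B gave 18.7. Values were tested as log2(value + 1) with limma 3.58.1 in R 4.3.3 (lmFit, eBayes with trend, 1 fit per experiment, 14034 and 14312 genes with a mean of at least 10) and Benjamini-Hochberg adjustment. The scripts were tested on simulated data. The members and the 11 lists were chosen with earlier results of these data known. Named from each list were at most 6 genes that passed in 1 direction with siINO80#1, siINO80#2 and siMCRS1 in DMSO, in the order of the smallest of the 3 changes, any that passed in EPZ-6438 against DMSO, and the 5 genes most like VGF and NGFR. Alternatives were pseudocounts of 0.1 and 5, other filters, equal totals, quantile normalization, no trend, only the compared groups, each library left out, the replicate letter as a block, and edgeR 4.0.16 with TMM on the recovered reads. Promoter windows and gene positions are from RefSeq (GRCh38.p14), and strands, overlaps and transcript lengths came by symbol from GENCODE v44 on GRCh37. Python 3.11.15 with pandas 2.3.3 and matplotlib 3.10.9 was used otherwise.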

Additional observations from a re-analysis of the deposited data

How the results depend on the processing

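Of 1072 values recomputed under the alternatives, 1028 counted as unchanged. For most log2 differences this meant the same direction and the same side of the threshold, and for counts a change within 1.5 times. The differences of VGF and NGFR from NTG had no test. They counted as unchanged if the direction held and the value moved by less than the gene's residual SD. For NGFR in the drug experiment, with a residual SD of 1.04, this is a loose limit. The cause of the changes was not tested. Quantile normalization turned CHGB to 0.0074 with siINO80#1 and to 0.1274 with siMCRS1 in EPZ-6438. For EPZ-6438 against DMSO in NTG it called 4 listed genes higher and 1 lower, and eBayes without a trend called 0 higher, in place of 2 and 0. Equal totals raised the listed genes lower with siMCRS1 in DMSO from 17 to 28. For EPZ-6438 against DMSO in siMCRS1, a pseudocount of 5 and edgeR each called 1 listed gene higher in place of 0.

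With each library left out in turn (a lone DMSO NTG library is then assumed to vary like the other groups), CHGB with siINO80#1 ranged from -0.2388 to 0.1503 and SCG3 from -0.4453 to 0.0817. The VGF difference between the INO80 siRNAs ranged from 0.8627 to 1.2909, losing its call without siINO80#1 replicate A. For EPZ-6438 against DMSO, VGF in NTG ranged from -0.6256 to 0.1242, above 0 without DMSO NTG replicate 3 or EPZ-6438 NTG replicate 1, and in siMCRS1 REST ranged from -0.2063 to 0.0355 and SCG5 from -0.1493 to 0.7765. The interaction ranged from -0.0221 to 0.3156 for REST and from -0.5278 to 0.3981 for SCG5. Listed genes lower ranged from 4 (without NTG replicate C) to 10 with siINO80#1, from 15 (without siINO80#1 replicate A or C) to 23 between the INO80 siRNAs, from 11 (without DMSO NTG replicate 3) to 17 with siMCRS1 in DMSO, and from 16 (without EPZ-6438 siMCRS1 replicate B) to 28 in EPZ-6438. For EPZ-6438 against DMSO, listed genes higher ranged from 0 to 2 in NTG and from 0 to 1 in siMCRS1.

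The replicate letters of the INO80 experiment are shared across groups. The deviations of libraries with 1 letter correlated at a mean r of 0.10 (9 pairs, 5 of them over 0.1, lowest -0.077). Libraries of other letters correlated at -0.05 (18 pairs, 2 of them over 0.1), and 8 of 9 libraries were closest to their own letter. What the letters share was not tested, and the main fits did not use the pairing. Each group holds 1 library of each letter, so the replicate block cannot move a log2 difference (2.92, 4.02 and 1.10 for VGF) and acts only on its error. With the block, listed genes higher were 52, 61 and 19 in place of 49, 62 and 15. Among all tested genes the block gave more calls in each comparison. Those higher were 3153, 3920 and 1573 in place of 2912, 3733 and 1330, and those lower 3174, 4207 and 2017 in place of 2921, 3992 and 1766. In the drug experiment no such block could be fitted, because most columns carry no label letter.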
